A study of Homo sapiens with 5 samples.

Results

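The cadherin genes CDH1, CDH2, CDH4, CDH6, CDH7, CDH8, CDH11, CDH12, CDH13 and CDH18 were followed through the differentiation of human embryonic stem cells into neurons that make gonadotropin-releasing hormone (GnRH). The members are 10 of the 36601 genes counted in the D0 to D10 libraries and of the 33538 genes counted at D22 to D26. They were chosen by gene symbol, with earlier results of these data known, and other cadherin genes stand in a separate list. Single-cell RNA sequencing on 10× Genomics droplets gave 8 libraries from WA09, an established human embryonic stem cell line, each 1 condition with no replicate. D0 is the undifferentiated line. D5_dSMADi and D10_dSMADi are cells on days 5 and 10 of dual SMAD inhibition with dorsomorphin and SB431542, which turns stem cells into neural progenitors. D5_XAV939 and D10_XAV939 received the same inhibitors together with 10 µM XAV939, a tankyrase inhibitor that lowers Wnt signalling. D22, D24 and D26 are later days of the protocol without XAV939, after FGF8 and during treatment with the Notch pathway inhibitor DAPT. All cells come from 1 line in culture, so the libraries say nothing of other lines or of tissue.

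Classical cadherins are single-pass membrane proteins that bind the same or a related cadherin on the neighbouring cell in the presence of calcium. Their cytoplasmic tails hold p120-catenin and β-catenin, which link them through α-catenin to actin. E-cadherin (CDH1) holds epithelia and pluripotent cells together, and N-cadherin (CDH2) takes its place in the forming neural plate. R-cadherin (CDH4) belongs with them to type I, while CDH6, CDH7, CDH8, CDH11, CDH12 and CDH18 are type II cadherins, which the developing nervous system uses in different combinations in different territories. T-cadherin (CDH13) is anchored by a lipid, lacks the cytoplasmic tail and is listed here only as a relative.

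In the GENCODE 44 annotation of GRCh38, the build of the deposited counts, 3 of the genes lie on chromosome 5, namely CDH18 (chr5:19471296-20575873, minus strand), CDH12 (chr5:21750673-22853344, minus strand) and CDH6 (chr5:31193686-31329146, plus strand). CDH12 is the nearest cadherin gene to CDH18 in this annotation, and they span 1104.6 kb (CDH18) and 1102.7 kb (CDH12). CDH8 (chr16:61647242-62037035, minus strand), CDH11 (chr16:64943753-65126112, minus strand), CDH1 (chr16:68737292-68835537, plus strand) and CDH13 (chr16:82626965-83800640, plus strand) share chromosome 16. CDH2 (chr18:27932879-28177946, minus strand) and CDH7 (chr18:65750252-65890337, plus strand) are on chromosome 18, and CDH4 (chr20:61252261-61940617, plus strand) is on chromosome 20. Antisense genes overlap several of them, among them CDH18-AS1 and CDH8-AS1. The sources used here do not state how strand was treated in counting, so reads of CDH18 or CDH8 and of these partners are not shown to be fully separate.

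The promoters of CDH2, CDH12 and CDH18 are shown because CDH2 was the most abundant member in every library but D0 and because CDH12 and CDH18, neighbours on chromosome 5, were both found in TBR1/PPP1R17 cells. Each is the 250 bases before the first listed RefSeq start on GRCh38.p14, written 5′ to 3′ on the minus strand, from chr18:28177131-28177380, chr5:22853345-22853594 and chr5:20575714-20575963. The CDH2 window lies inside the GENCODE span of CDH2 given above, and part of the CDH18 window lies inside that of CDH18. These 2 RefSeq starts are thus downstream of the GENCODE gene starts. Capitals mark a CCAAT box on either strand, a common promoter element that was searched after the letters had been seen.
CDH2: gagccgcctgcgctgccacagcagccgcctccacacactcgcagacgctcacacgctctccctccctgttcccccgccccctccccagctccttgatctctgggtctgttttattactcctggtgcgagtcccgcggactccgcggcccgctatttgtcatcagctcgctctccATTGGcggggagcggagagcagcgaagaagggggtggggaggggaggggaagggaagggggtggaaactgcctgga
CDH12: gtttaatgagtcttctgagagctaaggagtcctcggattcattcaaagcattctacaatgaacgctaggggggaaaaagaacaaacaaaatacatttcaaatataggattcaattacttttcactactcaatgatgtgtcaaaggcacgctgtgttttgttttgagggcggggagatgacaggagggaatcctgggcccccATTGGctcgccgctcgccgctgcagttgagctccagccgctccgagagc
CDH18: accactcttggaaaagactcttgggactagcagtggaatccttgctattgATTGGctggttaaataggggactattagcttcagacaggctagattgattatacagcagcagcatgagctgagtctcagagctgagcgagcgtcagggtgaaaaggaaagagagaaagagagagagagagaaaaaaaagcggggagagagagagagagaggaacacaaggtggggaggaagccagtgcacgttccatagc
Each of the 3 windows held 1 CCAAT box, starting 76 bases before the start in CDH2, 49 in CDH12 and 200 in CDH18, and 32.0% of all 35116 promoter windows of this length held 1 or more. None of the 3 windows held CAGGTG, the E-box read by ZEB1, ZEB2 and SNAI1 (17.5% of windows), CAGATG, an E-box of proneural factors (12.2%), or TAATTA, a homeodomain core (4.35%), on either strand. Further listed starts of these genes are not shown. A further CDH2 window (chr18:28036642-28036891) held CAGATG 97 bases before its start, and not every further window held a CCAAT box. These matches are letters only and say nothing of binding. RefSeq windows were at hand for 6 of the 10 genes. CDH1, CDH6, CDH11 and CDH13 were not among them.

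After filters on cells, 1009 cells were kept at D0, 2168 to 2815 in each D5 and D10 library and 9107 to 11056 in each of D22, D24 and D26. The libraries held 58073098 to 130440502 unique molecular identifiers (UMIs, each 1 counted RNA molecule) and the median cell 69455 UMIs at D0, 24290.5 to 31112.5 at D5 and D10 and 7180 to 12179 later. The 5 conditions up to D10 were tagged and pooled in 1 droplet run and shared no barcode, while D22, D24 and D26 were run apart with another dissociation and another counting version, so D10 and D22 are only set side by side. Libraries of different runs shared 1 to 37 barcodes. Levels are given in CPM, the UMIs of a gene in every 1000000 UMIs of the cells. The 3′ count does not scale with gene length. Intervals are exact 95% intervals for counting error only, and with 1 library per condition no difference was tested. The labels held against their markers: the stem cell factor POU5F1 was at 1244 CPM at D0 and at 0.207 to 26.6 CPM in the other libraries. The neural progenitor factor PAX6 was at 246 CPM in D10_dSMADi and at 5.73 CPM at D0. The neuronal gene STMN2 was at 9045 CPM at D24 and at 15.3 CPM at D0.

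The question of the first 5 libraries was how the cadherins changed as stem cells became neural progenitors. CDH1 was at 70.5 CPM (95% Poisson interval 68.6 to 72.4) at D0, and at 0.866 CPM in D5_dSMADi, 0.876 CPM in D5_XAV939, 0.787 CPM in D10_dSMADi and 0.809 CPM in D10_XAV939. CDH2 was at 35.7 CPM (34.3 to 37.0) at D0, and at 241 CPM in D5_dSMADi, 216 CPM in D5_XAV939, 462 CPM (458 to 467) in D10_dSMADi and 468 CPM (462 to 474) in D10_XAV939. The 2 genes thus changed places, with D0 the only library in which E-cadherin RNA exceeded N-cadherin RNA. CDH1 made up 66.4% (exact binomial interval 65.4 to 67.4) of the UMIs of both genes at D0, 0.358% in D5_dSMADi and 0.170% in D10_dSMADi. It made up 0.404% in D5_XAV939 and 0.173% in D10_XAV939.

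In D10_dSMADi against D0 the log2 ratio of CDH1 was -6.48 (-6.87 to -6.12), that is 89.6-fold lower, and that of CDH2 was 3.70 (3.64 to 3.75), or 13.0-fold higher. At D5 the CDH1 difference was already of this size, at -6.35 (-6.71 to -6.00) in D5_dSMADi and -6.33 in D5_XAV939. CDH2 differed in steps, at 2.76 (2.70 to 2.81) in D5_dSMADi against D0 and 0.94 in D10_dSMADi against D5_dSMADi. With XAV939 the same steps were 2.60 and 1.11. D0 stands in every comparison with the start, so these ratios share its counting error. CDH2 in D10_dSMADi against D0 was 3.57 with TMM and 3.58 with DESeq2 scaling, both outside its interval for counting error.

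The few CDH1 molecules at D5 and D10 are given beside other stem cell RNAs of the same pooled droplet run. CDH1 stood at 1.12 to 1.24% of its D0 level in the 4 libraries. The stem cell genes POU5F1, NANOG and TDGF1, which the neural progenitors should lack, stood at 1.16 to 2.14%, 0.852 to 1.37% and 0.837 to 1.1% of theirs. There were 0.903 CDH1 UMIs for each NANOG UMI at D0 and 1.30 in D5_dSMADi, 1.04 in D5_XAV939, 0.861 in D10_dSMADi and 0.758 in D10_XAV939. These shares are alike, but no empty droplets were measured, and whether the remaining CDH1 is free RNA or low expression was not tested. No CDH1 expression is read from the D5 and D10 counts.

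**Figure D1:**
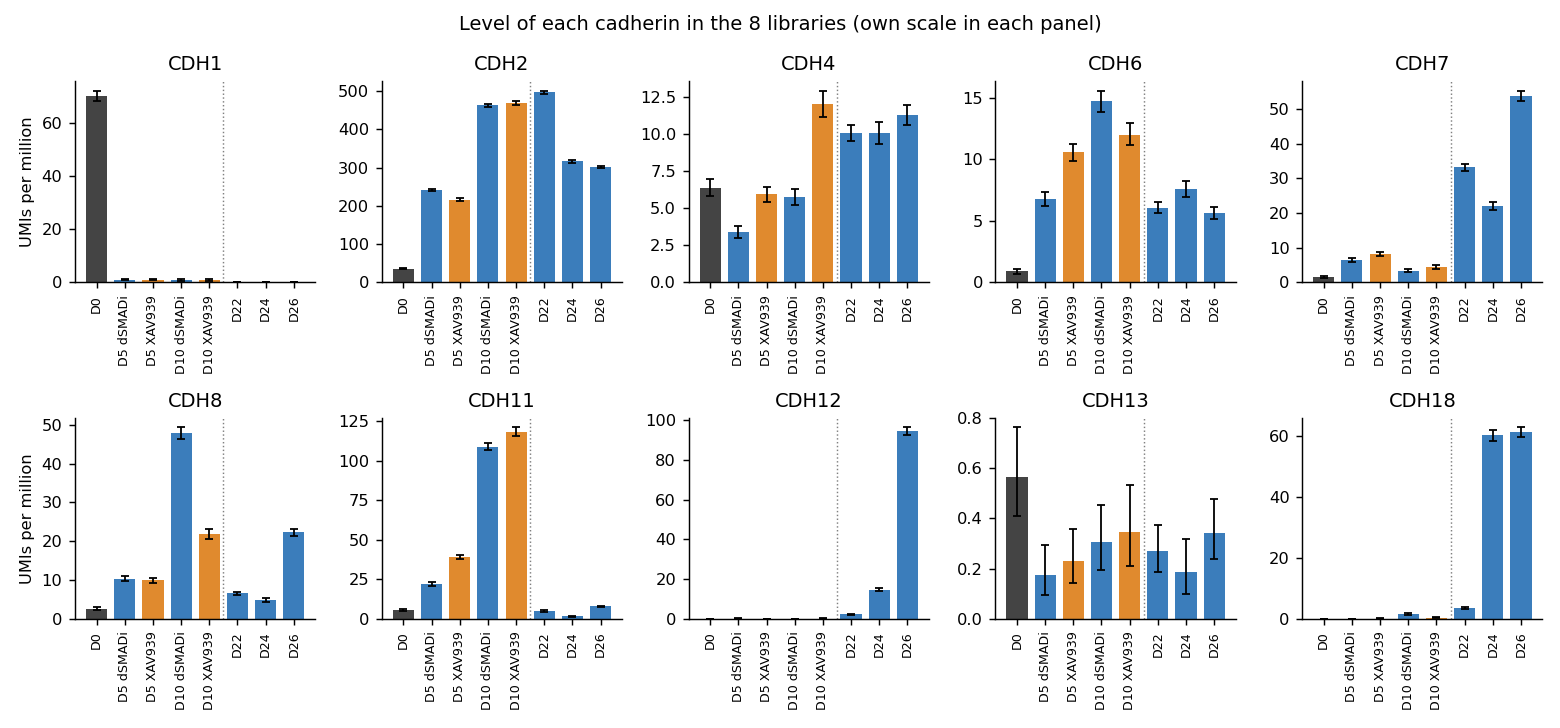
Level of each of the 10 cadherins in each of the 8 libraries, in CPM, with exact 95% Poisson intervals for counting error. Bars are on a linear axis with its own scale in each panel, so heights do not compare between genes. CDH1 is at 70.5 at D0 and under 1 in all other libraries, while CDH12 is at 2.33 at D22 and 94.5 at D26.

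UMIs of both genes were found in single cells at D0. Of the 1009 D0 cells 833, or 82.6%, had at least 1 UMI of both genes, 13.0% had CDH1 alone, and the median cell held 5 CDH1 UMIs and 2 CDH2 UMIs. After each cell had been thinned to 10000 UMIs, to match depths, 15.6% of D0 cells had both, 31.9% CDH1 alone, 13.8% CDH2 alone and 38.8% neither. CDH2 was detected in 32.8% (28.6 to 37.2) of the thinned D0 cells with CDH1 and in 26.2% (22.5 to 30.2) of those without, intervals that overlap. Progenitors were in the same pooled run, and D0 held 10.7% of the mean D5 and D10 level of CDH2, against 3.67% for PAX6, 2.85% for SOX1 and 5.34% for HES5. The part of free RNA in the co-detection at D0 was not tested.

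By D5 CDH1 was undetected in nearly every thinned cell. In D5_dSMADi 86.1% had CDH2 alone and 1 cell, 0.0413%, had CDH1 alone. In D10_dSMADi 95.7% had CDH2 alone and 0 of 2416 cells had CDH1 alone (exact upper limit 0.153% for this pattern of detection at this depth), while 11 had both, and in D10_XAV939 95.6% had CDH2 alone. Unthinned, cells with 2 or more CDH1 UMIs numbered 3 in D5_dSMADi, 4 in D5_XAV939, 2 in D10_dSMADi and 1 in D10_XAV939, whereas 514 D0 cells had 5 or more. The median CDH2 count per cell was 7 UMIs in D5_dSMADi, 6 in D5_XAV939, 14 in D10_dSMADi and 11 in D10_XAV939.

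**Figure D2:**
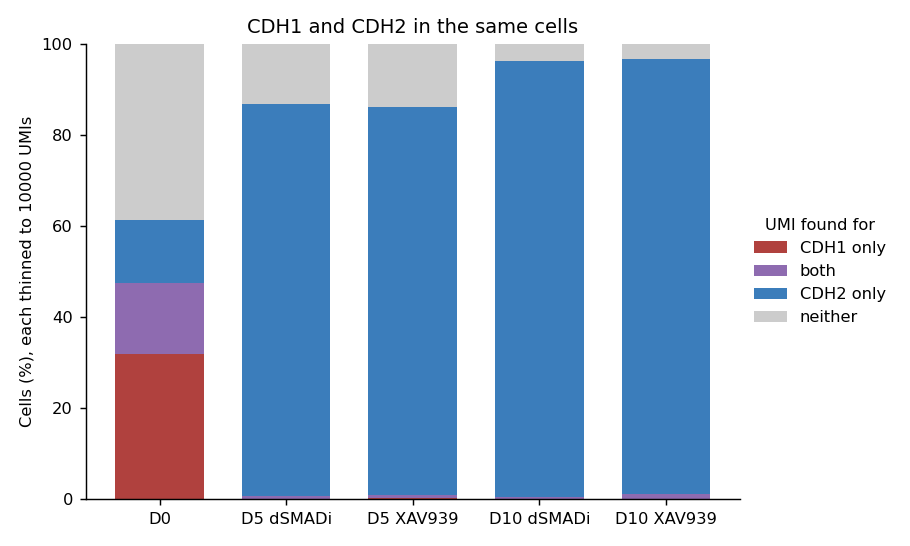
Share of cells, in percent, with UMIs of CDH1 alone, CDH2 alone, both or neither in the 5 libraries from D0 to D10, after each cell was thinned to 10000 UMIs. Cells with both are 15.6% of D0, and cells with CDH2 alone are 86.1% of D5_dSMADi and 95.7% of D10_dSMADi.

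Known regulators of CDH1 stood on opposite sides of the same step. ZEB1 and ZEB2, which repress CDH1 transcription, went from 2.71 to 64.9 CPM (log2 ratio 4.58) and from 2.96 to 74.3 CPM (4.65) between D0 and D10_dSMADi. GRHL2 and OVOL2, which maintain epithelial genes, went from 7.80 to 0.102 CPM (-6.26) and from 6.52 to 0.127 CPM (-5.68). The repressors SNAI1 and SNAI2 stayed under 3 CPM at both ends. Of 5 listed CDH1 regulators with at least 5 CPM in D0 or D10_dSMADi 2 were over 2-fold higher and 2 over 2-fold lower, with a median of 0.08. Of all 11237 genes at this minimum 13.7% were over 2-fold higher and 13.1% lower, with a median of 0.08.

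Epithelial junction genes were mostly lower with CDH1. Of 16 at the minimum, 9 were over 2-fold lower in D10_dSMADi than in D0 and 0 over 2-fold higher, beside 13.1% and 13.7% of all genes, with a median of -1.96. The tight junction gene CLDN7 went from 115 to 1.02 CPM (-6.82) and the polarity gene CRB3 from 9.77 to 0.127 CPM (-6.27). By contrast, of 13 catenins and junction partners 4 were over 2-fold higher and 0 over 2-fold lower, beside 13.7% and 13.1% of all genes, with a median of -0.01. The 2 largest were the δ-catenin CTNND2, from 7.61 to 25.4 CPM (1.74), and the neuronal α-catenin CTNNA2, from 5.61 to 15.7 CPM (1.48), while CTNNA1, the epithelial α-catenin, went from 131 to 92.3 CPM (-0.51). Of 4 other cadherins at the minimum, P-cadherin (CDH3) went from 21.9 to 2.18 CPM (-3.32), CDH10 from 0.25 to 8.66 CPM (5.11) and CDH20 from 0.158 to 5.43 CPM (5.10).

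Type II cadherins appeared beside CDH2, and CDH11 was the most abundant of them at D10. CDH11, known from mesenchyme and from the neural tube, was at 5.37 CPM at D0, 22.1 CPM in D5_dSMADi, 39.2 CPM in D5_XAV939, 109 CPM (107 to 111) in D10_dSMADi and 118 CPM (116 to 121) in D10_XAV939. CDH8, a cadherin of forebrain territories, was at 2.58, 10.4, 9.95, 47.8 (46.3 to 49.4) and 21.8 CPM (20.6 to 23.1) in the same order. CDH6, expressed in neural fold and kidney, was at 0.869, 6.75, 10.6, 14.7 (13.9 to 15.6) and 12 CPM. All 4 treated libraries lay above D0 for each of these 3 genes. Against D0, the log2 ratio in D10_dSMADi was 4.34 (4.2 to 4.49) for CDH11, 4.21 (4.00 to 4.43) for CDH8 and 4.08 (3.73 to 4.46) for CDH6, which is 20.3-fold, 18.5-fold and 17.0-fold higher.

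CDH7, a neural tube and neural crest cadherin, took another course and, of these 5 libraries, was highest at D5. It was at 1.55 CPM at D0, 6.35 CPM in D5_dSMADi, 8.04 CPM in D5_XAV939, 3.25 CPM in D10_dSMADi and 4.37 CPM in D10_XAV939, and none of these intervals overlapped. Its log2 ratio at D10 against D5 was -0.97 in dSMADi and -0.88 in XAV939 cultures, short of 2-fold in both, but -1.21 and -1.20 in dSMADi and -1.06 and -1.05 in XAV939 under TMM and DESeq2 scaling. CDH4, the retinal type I cadherin, was at 6.34, 3.35, 5.92, 5.74 and 12 CPM (11.1 to 12.9) from D0 to D10_XAV939. Its D0 level was 99.6% of its mean D5 and D10 level and overlapped those of D5_XAV939 and D10_dSMADi.

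CDH12 and CDH18, which stood at higher levels at D24 and D26, were barely seen here. CDH12 had 2 to 7 UMIs in each of the 5 libraries, 0.0263 to 0.103 CPM, with all intervals overlapping. CDH18 had 0 UMIs at D0, where 3 counts would be 0.0395 CPM, then 3 in D5_dSMADi, 5 in D5_XAV939, 129 in D10_dSMADi (1.64 CPM) and 24 in D10_XAV939 (0.413 CPM). Against the floor of 3 counts at D0, CDH18 was at least 41.4-fold higher in D10_dSMADi and at least 10.5-fold higher in D10_XAV939. Neither level reached 5 CPM.

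The 10 members were chosen with earlier results of these data known, so their counts only stand beside the shares of all genes. Of 7 members with at least 5 CPM in either library, 5 were over 2-fold higher in D5_dSMADi than at D0 and 1 was lower (CDH1). Of all genes at that minimum, 9.06% were higher and 18.3% lower. Of 3 other cadherins at that minimum, 1 was higher and 1 lower. Among the members D5_XAV939 gave 5 and 1 of 7 as well, beside 10.2% and 16.6% of all genes. In D10_dSMADi it was 4 higher and 1 lower of 6 (13.7% and 13.1% of all genes), and in D10_XAV939 4 and 1 of 6 (14.1% and 12.7%). From D5 to D10, 3 of 6 members were over 2-fold higher with dSMADi (6.01% of all genes) and 4 of 6 with XAV939 (5.07%), and 0 were lower in either, where 1.72% and 1.63% of all genes were. With TMM or DESeq2 scaling CDH7 was lower past 2-fold in both. A member low in both libraries cannot enter these counts: CDH12, CDH13 and CDH18 never did, nor CDH7 at D10 against D0. Several of the D5 to D10 calls lie near 2-fold, since CDH6 in dSMADi went from 1.13 to 0.89, and CDH2, CDH8 and CDH4 with XAV939 from 1.11, 1.13 and 1.02 to at most 0.96, when TMM or DESeq2 set the scale.

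The D0 levels of these members are given beside progenitor genes in the same way. D0 held 7.90% of the mean D5 and D10 level of CDH11, 7.95% of CDH6, 11.6% of CDH8 and 27.5% of CDH7, above the 2.85 to 5.34% of PAX6, SOX1 and HES5. What part of the D0 counts came from other cells of the run was not tested.

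The XAV939 libraries ask how lower Wnt signalling bears on the cadherins at matched days. CDH2 hardly differed at D10, with a log2 ratio of D10_XAV939 over D10_dSMADi of 0.02 (-0.01 to 0.04), and it was slightly lower at D5, at -0.16 (-0.19 to -0.13). CDH8 was 2.19-fold lower with XAV939 at D10, at -1.13 (-1.22 to -1.04), whereas at D5 the ratio was -0.06 (-0.20 to 0.08). CDH4 was 2.09-fold higher at D10, at 1.06 (0.89 to 1.24), and was also higher at D5, at 0.82 (0.60 to 1.04). CDH11 was higher with XAV939 at D5, at 0.82 (0.74 to 0.91), and little different at D10, at 0.12 (0.07 to 0.16).

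CDH6 was higher with XAV939 at D5, at 0.65 (0.49 to 0.81), and lower at D10, at -0.29 (-0.43 to -0.16). At D5 0 of 6 members passed 2-fold in either direction (0.776% of all genes higher and 0.836% lower), and at D10 1 of 5 was higher and 1 lower (1.59% and 1.84%). CDH18 had 24 UMIs with XAV939 and 129 without at D10, a ratio of -1.99 (-2.68 to -1.35), under the 5 CPM minimum. At D10, 0 of 13 catenins and partners and 0 of 3 CDH1 regulators passed 2-fold. Of 3 other cadherins CDH20 was lower, at -1.96, of 11 epithelial genes CLDN3 was lower, at -1.16, and of 3 proteases that process or shed cadherins PCSK5 was higher, at 1.02. The 5 neuron markers summed to 322 CPM in D10_dSMADi and 515 CPM in D10_XAV939, and 3 of 5 were over 2-fold higher with XAV939. Mesenchyme markers summed to 14.9 and 6.77 CPM. The part of these lists in the cadherin differences was not tested.

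**Figure D3:**
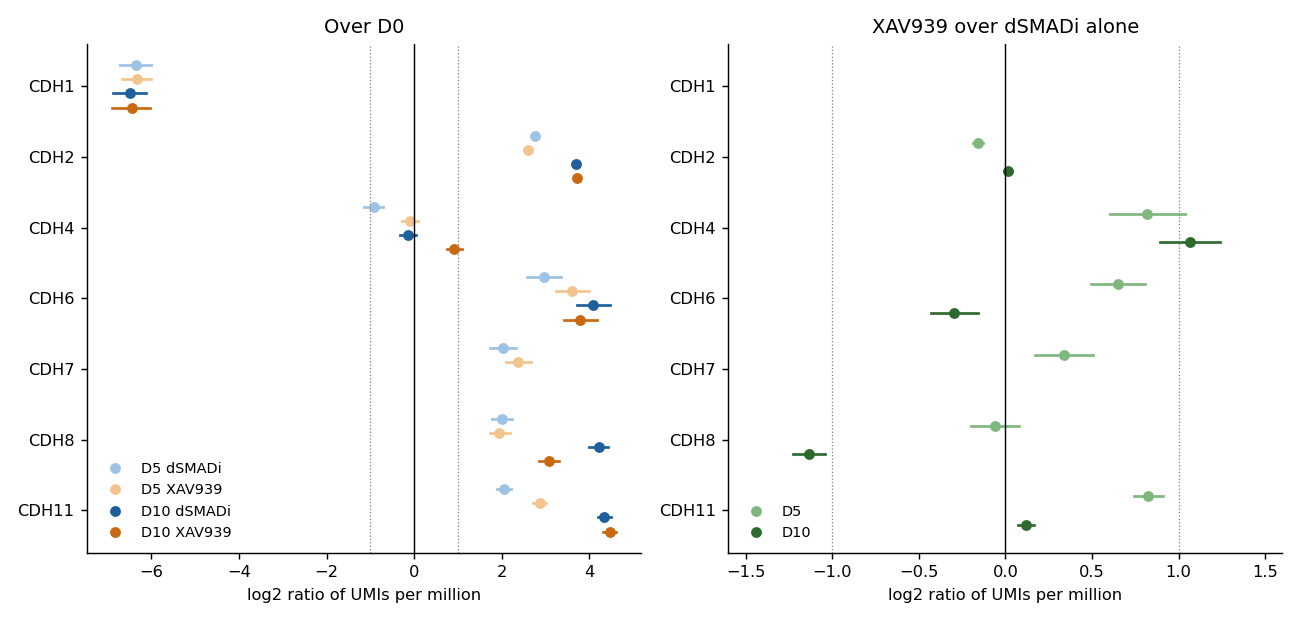
Log2 ratios of the cadherins in the D5 and D10 libraries against D0, and with XAV939 against without at D5 and D10, with exact 95% intervals for counting error and dotted lines at 2-fold, for members at the 5 CPM minimum. CDH1 lies between -6.48 and -6.33 in every comparison with D0, CDH2 reaches 3.70, and CDH8 and CDH4 lie at -1.13 and 1.06 in XAV939 against dSMADi at D10.

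A few cells at D10 already carried neuronal RNA, and these held less CDH2 and CDH11. Cells with at least 10 UMIs of STMN2 and DCX together numbered 19 in D10_dSMADi and 74 in D10_XAV939. CDH2 was at 262 CPM in them and 464 CPM in the other cells of D10_dSMADi, and at 269 and 475 CPM in D10_XAV939, a log2 ratio of -0.82 in both. Of 5 neural progenitor markers 4 were over 2-fold lower in these cells in either library, and their part in the cadherin differences was not tested. CDH11 was at 27.6 against 109.5 CPM (-1.99) and at 37.2 against 121 CPM (-1.71). CDH18 went the other way in D10_XAV939, where these 74 cells held 13 of the 24 UMIs, 6.80 against 0.196 CPM. In D10_dSMADi 1 of the 129 CDH18 UMIs lay in the 19 cells, 2.30 against 1.63 CPM. At the 5 CPM minimum 1 of 5 members was over 2-fold higher and 3 lower in D10_dSMADi (19.1% and 16.2% of all genes), with CDH4 (higher), CDH6 and CDH8 (lower) on 5, 3 and 4 UMIs, and 1 of 6 higher and 3 lower in D10_XAV939 (11.1% and 9.83%). With a limit of 5 UMIs the ratio of CDH8 fell short of 2-fold in D10_XAV939, at -0.41, and so did that of CDH6, at -0.94, while CDH11 came to -1.02. In D10_dSMADi that limit gave -1.50 for CDH8 and 0.84 for CDH4. The CDH2 ratio was smaller with that limit, at -0.43 in D10_XAV939 and -0.68 in D10_dSMADi.

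The libraries of D22, D24 and D26 followed neurons as they formed. CDH2 stayed the most abundant member, at 497 CPM (494 to 501) at D22, 317 CPM (313 to 321) at D24 and 301 CPM (298 to 305) at D26. Set beside D10 without a comparison, D10_dSMADi had 462 CPM. CDH1 had 2 UMIs at D22, 0 at D24, where 3 counts would be 0.0428 CPM, and 4 at D26. CDH11, at 109 CPM in D10_dSMADi, was at 4.89 CPM at D22, 1.72 CPM at D24 and 7.86 CPM at D26.

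The largest differences were those of CDH12 and CDH18, type II cadherins of brain neurons. CDH12 was at 2.33 CPM at D22, 14.6 CPM (13.8 to 15.6) at D24 and 94.5 CPM (92.6 to 96.4) at D26. CDH18 was at 3.59 CPM at D22, 60.2 CPM (58.4 to 62.1) at D24 and 61.3 CPM (59.7 to 62.8) at D26. The 2 neighbours on chromosome 5 thus differed in timing: CDH18 was 16.8-fold higher at D24 than at D22 (4.07, 3.93 to 4.21) and level after that (0.02, -0.03 to 0.08), whereas CDH12 was 6.28-fold higher at D24 (2.65, 2.47 to 2.84) and again 6.45-fold higher at D26 (2.69, 2.60 to 2.78). That CDH18 was level at D26 depends on the scale, since its sign turns under TMM or DESeq2. The difference between the genes was not tested.

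CDH7 and CDH8 were highest at D26 among the later libraries. CDH7 was at 33.2 CPM (32.2 to 34.2), 21.9 CPM (20.9 to 23.1) and 54.0 CPM (52.5 to 55.4) from D22 to D26, with a ratio of D26 over D24 of 1.30, or 2.46-fold. CDH8 was at 6.56, 4.76 and 22.3 CPM, with a ratio of 2.23, or 4.68-fold. CDH11 had a ratio of 2.19, or 4.56-fold, from a low level. CDH4 stayed between 10.0 and 11.3 CPM and CDH6 between 5.61 and 7.58 CPM.

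With CDH12 at 94.5 CPM, CDH2 made up a smaller part of the 10 members at D26. It made up 28.9% of all UMIs of the 10 members at D0, 82.8% in D5_dSMADi, 71.6% in D10_dSMADi, 88.1% at D22, 72.3% at D24 and 54.0% at D26. Of 7 members at the minimum 2 were over 2-fold higher at D24 than at D22 and 0 lower, beside 10.7% and 13.8% of all genes. CDH11, at 4.89 CPM at D22 and so just under the minimum, was 2.84-fold lower at D24 (-1.50, -1.80 to -1.22). Of 8 members 4 were over 2-fold higher at D26 than at D24 and 0 lower, beside 8.18% and 2.46%. The median log2 ratio of all genes was 0.35 at D26 over D24, and TMM and DESeq2 lowered every ratio there by 0.25 and 0.27.

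Among the partners of the cadherins, CTNNA1 went from 235 CPM at D22 to 47.6 CPM at D24 (-2.30) and CTNNA2 from 13.7 to 43.2 CPM (1.66), which left the epithelial and the neuronal α-catenin at like levels. Of 13 catenins and partners 1 was over 2-fold higher and 4 lower in that step, beside 10.7% and 13.8% of all genes. The p120-catenin relative PKP4 was lower at D24 (-1.14) and higher at D26 (1.77). Of the 3 CDH1 regulators at the minimum all 3 were over 2-fold lower at D24 than at D22, with TCF3 at -1.66 and ZEB2 at -1.34. Over the same days the neuron marker sum went from 2125 CPM at D22 to 11009 CPM at D24 and the neural progenitor sum from 646 to 96.3 CPM. In a whole library more cells of a type and more RNA per cell cannot be told apart.

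To see which cells held which cadherin, cells were gated at D24 and D26. GNRH1 encodes the hormone GnRH. GNRH1-high cells had it at or above 3000 CPM of the cell and numbered 312 at D24 and 828 at D26. TBR1/PPP1R17 cells had at least 3 UMIs of TBR1, a transcription factor of excitatory cortical and olfactory bulb neurons, and the phosphatase inhibitor PPP1R17 together, and numbered 5358 and 7580. Cells in both gates, 33 and 171, were left out. Median depths were alike, at 7939.5 and 7491.5 UMIs at D24 and 9318.5 and 8680.5 at D26. The gates used none of the cadherins. Neural progenitor markers went with the gates: 5 of 5 were over 2-fold higher in GNRH1-high cells at D24 and 4 of 5 at D26, beside 2.94% and 3.13% of all genes, with SOX2 at 121 against 4.78 CPM at D24. Their part in the cadherin differences was not tested.

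CDH6 had the largest ratio between the gates among the 10 members. At D24 it was at 112 CPM (99.7 to 126) in them and at 0.389 CPM, 17 UMIs, in TBR1/PPP1R17 cells, a log2 ratio of 8.17 (7.47 to 8.97), or 289-fold. At D26 it was at 34.5 and 0.912 CPM, a ratio of 5.24 (4.84 to 5.66), or 37.8-fold. After thinning to 3000 UMIs 24% of GNRH1-high cells had a CDH6 UMI at D24 and 8.59% at D26, against 0.0938% and 0.239% of TBR1/PPP1R17 cells. Unthinned, the GNRH1-high shares were 41.7% and 19.7%. CDH6 was not confined to GNRH1-high cells, which held 289 of the 532 UMIs of the D24 library and 259 of the 558 at D26, and cells in neither gate held 193 and 162. Under the alternatives the ratio ran from 6.54 to 8.49 at D24 and from 4.11 to 6.09 at D26.

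Within GNRH1-high cells CDH6 was thus 3.25-fold lower at D26 than at D24, at -1.70 (-1.95 to -1.45). CDH4 stood higher in the same step, at 15.5 CPM at D24 and 37.3 CPM (33.1 to 42.0) at D26, a ratio of 1.26 (0.78 to 1.78) that dropped to 0.97 and 0.96 with TMM and DESeq2 scaling. In TBR1/PPP1R17 cells CDH4 was at 9.42 and 7.36 CPM, so that GNRH1-high cells had 5.07-fold more at D26 (2.34, 2.13 to 2.56) and less than 2-fold more at D24 (0.72, 0.21 to 1.19). Thinned shares of cells with a CDH4 UMI were 3.90% and 9.84% in GNRH1-high cells at D24 and D26 and 2.57% and 1.98% in TBR1/PPP1R17 cells. At D26 CDH4 was detected in 9.72% of the thinned GNRH1-high cells with CDH6 and in 10.3% of those without. At D24 these shares were 7.89% (2.95 to 16.4) and 3.02% (1.22 to 6.12), intervals that overlap.

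CDH12, CDH18, CDH7 and CDH8 were higher in TBR1/PPP1R17 than in GNRH1-high cells. CDH12 was at 18.8 CPM at D24 and 116 CPM at D26 in these cells and at 1.94 and 4.13 CPM, 5 and 31 UMIs, in GNRH1-high cells, so it was 9.67-fold lower in the latter at D24 (-3.27, -4.90 to -2.04) and 28.0-fold lower at D26 (-4.81, -5.36 to -4.30). CDH18 was at 68.0 and 73.7 CPM in TBR1/PPP1R17 cells and at 4.27 and 2.93 CPM, 11 and 22 UMIs, in GNRH1-high cells, 15.9-fold (-3.99, -5.00 to -3.15) and 25.1-fold (-4.65, -5.33 to -4.05) lower. Shares of thinned TBR1/PPP1R17 cells with a CDH12 UMI were 5.53% at D24 and 28.5% at D26, and with a CDH18 UMI 17.2% and 18.7%. GNRH1-high cells with a CDH12 UMI were 0.325% and 0.498%. Cells in neither gate held these genes too, with CDH12 at 8.26 and 52.2 CPM at D24 and D26. CDH18 was at 52.6 and 40.8 CPM in them, so neither gene was confined to cells that passed the gate. The neither-gate cells had lower median depths, 6621.5 and 7341 UMIs, and whether some were like cells under the limit was not tested. In cells gated at D26 on DLX or on IRX genes alone, CDH12 was at 3.80 and 4.48 CPM and CDH18 at 3.40 and 19.7 CPM.

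The low levels of CDH12 and CDH18 in GNRH1-high cells are given beside a gene of excitatory neurons. SLC17A6, a glutamate transporter of excitatory neurons, stood in GNRH1-high cells at 10.8% of its TBR1/PPP1R17 level at D24 and 9.63% at D26. CDH12 stood at 10.3% and 3.58% and CDH18 at 6.28% and 3.98%. CDH7 stood higher, at 26% and 17.1%, and CDH8 at 16.6% and 20.2%. In the opposite direction GAD2, an enzyme of inhibitory neurons, stood in TBR1/PPP1R17 cells at 0.916% and 3.27% of its GNRH1-high level, while CDH6 stood at 0.346% and 2.64%. With doublets left out the CDH18 ratio at D24 was -5.79 instead of -3.99. No other ratio between these gates at the minimum moved by over 1.5 times in that setting. Whether these low counts are free RNA, doublets or expression was not tested.

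For CDH6, CDH12 and CDH18 the cells in both gates lay between the single gates, with CDH6 at 68.2 and 25 CPM at D24 and D26, CDH12 at 16.5 and 68.7 CPM and CDH18 at 24.8 and 33.3 CPM. This did not hold for every member: at D24 CDH2 was at 263 CPM (219 to 313) and CDH4 at 22.7 CPM (11.4 to 40.7), below and above both gates. Their median depths of 14994 and 17297 UMIs were about those of 2 cells of the single gates, and whether they are doublets was not tested. Put into both groups they brought the CDH12 ratio to -2.14 at D24 and -2.37 at D26 and the CDH18 ratio to -3.17 and -2.67. Over all alternatives the CDH12 ratio ran from -3.86 to -2.14 at D24 and from -5.35 to -2.37 at D26, and that of CDH18 from -6.09 to -3.17 and from -5.25 to -2.67.

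CDH7 was at 6.60 CPM in GNRH1-high and 25.4 CPM in TBR1/PPP1R17 cells at D24 (-1.94, -2.73 to -1.26) and at 10.9 and 63.7 CPM at D26 (-2.54, -2.88 to -2.23). CDH8 was at 0.777 CPM, 2 UMIs, and 4.66 CPM at D24, under the minimum, and at 4.8 and 23.8 CPM at D26 (-2.31, -2.83 to -1.83). With cells of both gates in both groups the D26 ratio of CDH7 was -1.67, and with the GNRH1 limit at 10000 CPM that of CDH8 was -3.06. In cells of neither gate CDH7 was at 17.5 and 34.8 CPM at D24 and D26, lower than in TBR1/PPP1R17 cells. CDH8 was at 5.48 and 26 CPM in them, no lower than in TBR1/PPP1R17 cells. CDH2 was in both kinds of cell, at 321 (299 to 343) and 320.4 CPM at D24 (0.00, -0.10 to 0.10) and at 344 (331 to 358) and 295 CPM at D26 (0.22, 0.16 to 0.28). CDH11 hardly separated them at D26, at 6.80 and 7.54 CPM (-0.15, -0.59 to 0.27). At D24 CDH11 was at 3.88 and 1.42 CPM, 10 and 62 UMIs, under the minimum (1.45, 0.32 to 2.43). CDH1 had 0 UMIs in both at D24, and 0 and 3 at D26.

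**Figure D4:**
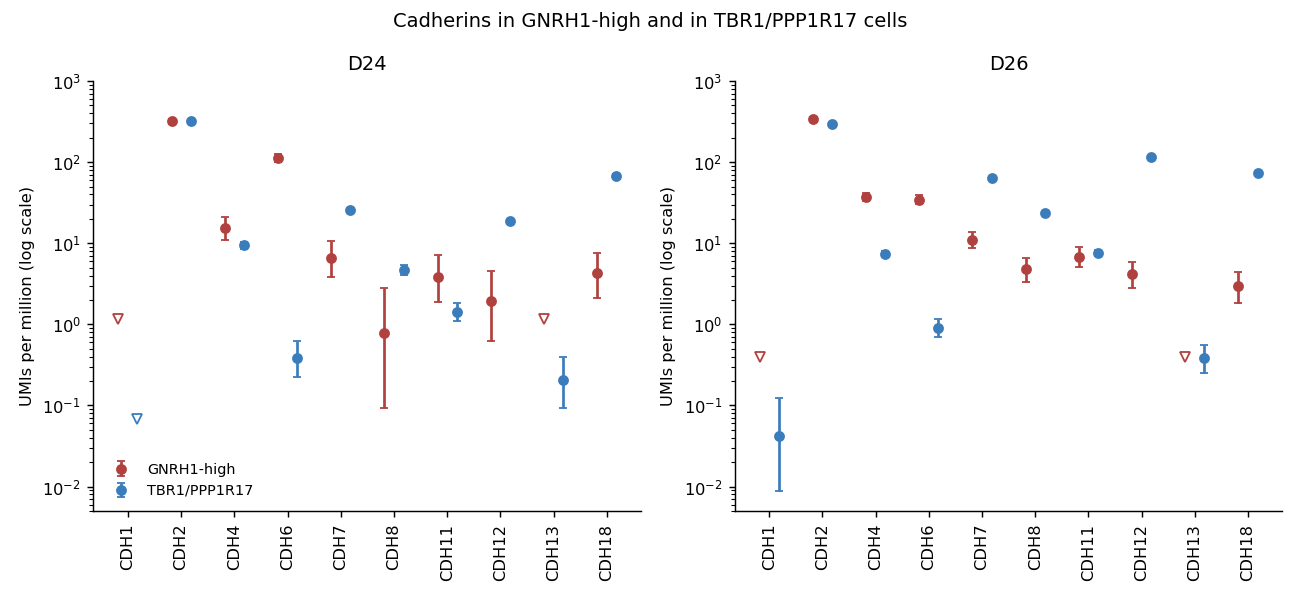
Level of the cadherins in GNRH1-high cells and in TBR1/PPP1R17 cells at D24 and D26, in CPM on a log axis, with exact 95% Poisson intervals for counting error. Open triangles mark the level of 3 counts where a gene had 0 UMIs, and CDH6 is at 112 and 34.5 in GNRH1-high cells and under 1 in TBR1/PPP1R17 cells, while CDH12 and CDH18 lie on the other side and CDH2 lies between 295 and 344 in all.

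At D24 1 of 6 members at the minimum was over 2-fold higher in GNRH1-high cells and 3 were lower, beside 2.94% and 7.94% of all genes. At D26 2 of 8 were higher and 4 lower, beside 3.13% and 5.18%. From D24 to D26, 1 of 5 members was over 2-fold higher and 1 lower within GNRH1-high cells (13.0% and 1.85% of all genes), and 4 of 7 were higher and 0 lower within TBR1/PPP1R17 cells (7.24% and 2.32%). The latter were CDH12 (2.62), CDH11 (2.41), CDH8 (2.35) and CDH7 (1.33), while CDH18 was at 0.12. The CDH12 difference between D24 and D26 was thus about as large within the TBR1/PPP1R17 gate as in the whole libraries (2.69).

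Among other cadherins CDH10, which with CDH9 lies between CDH12 and CDH6 on chromosome 5, was at 33.8 CPM in GNRH1-high and 11.6 CPM in TBR1/PPP1R17 cells at D24 (1.54) and 1.20 on the log2 scale higher at D26. At D24 all 3 other cadherins at the minimum were over 2-fold higher, beside 2.94% of all genes, and CDH23 had the largest ratio, at 5.44 against 0.526 CPM (3.37, 14 and 23 UMIs). At D26 it was 1 of 2, beside 3.13%. Of the catenins and partners the nectin NECTIN3 was lower in GNRH1-high cells at D24 (-2.27) and D26 (-1.72), and PKP4 was lower at D26 (-1.99). CTNNA1 was higher at D24 by 0.99. Of these partners 0 of 12 at D24 and 0 of 13 at D26 were over 2-fold higher in GNRH1-high cells, and 3 and 2 were lower, beside 7.94% and 5.18% of all genes lower.

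Pairs of cadherins were also read within single cells. In the TBR1/PPP1R17 cells of D26, in a pairing chosen after the levels were seen, 31.1% (28.8 to 33.5) of thinned cells with CDH18 had CDH12, against 28.8% (27.6 to 29.9) of those without. CDH7 was found in 16.3% of the thinned cells with CDH12 and in 15.9% of those without. In D10_dSMADi CDH8 was found in 36.8% (34.3 to 39.3) of cells with CDH11 and in 32.2% (29.2 to 35.3) of the others, and in D10_XAV939 in 18.9% and 14.4%. CDH8 was found in 7.91% of the thinned D26 cells with CDH18 and in 6.4% of those without. In these 5 pairings the share was higher where the other cadherin was detected, but this did not hold for every pairing read. CDH7 was found in 6.74% of the thinned D24 TBR1/PPP1R17 cells with CDH18 and in 7.21% of those without. At D26 these shares were 16.0% and 16.0%, and CDH4 was no more frequent with CDH6 in the GNRH1-high cells of D26. No pair was tested.

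The gates were also read at D22, before GNRH1 was common, with cells sorted by dividing (MKI67 and TOP2A), DLX, IRX, NEUROD4/NHLH1 or TBR1/PPP1R17 genes, at least 3 UMIs of 1 set and of no other. At D22 CDH18 was mostly in the TBR1/PPP1R17 cells, as 511 such cells held 311 of the 468 UMIs of the library. It had 0 UMIs in DLX cells, where 3 counts would be 0.498 CPM. It was at 0.290 CPM in dividing cells and 51.0 CPM in TBR1/PPP1R17 cells. CDH12 was at 13.3 CPM there, 4.82 CPM in DLX cells, 0.953 CPM in dividing cells and at 0 UMIs in IRX cells, where 3 counts would be 0.994 CPM. Both levels lie near those of the whole D24 library.

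CDH6 was found in other cells at D22, at 37.8 CPM in IRX cells, 12.1 CPM in DLX cells, 5.76 CPM in dividing cells, 1.48 CPM in TBR1/PPP1R17 cells and 1.03 CPM in NEUROD4/NHLH1 cells. CDH7 was at 62.3 CPM in DLX, 57.7 CPM in IRX and 37.3 CPM in dividing cells but at 15.7 CPM in NEUROD4/NHLH1 and 11.6 CPM in TBR1/PPP1R17 cells. At D26 the order was another, with CDH7 at 64.4 CPM in TBR1/PPP1R17 cells, 37.6 CPM in IRX cells and 18.8 CPM in DLX cells. CDH4 was at 18.3 CPM in DLX and 7.37 CPM in NEUROD4/NHLH1 cells of D22. CDH2 at D22 ranged from 693 CPM in IRX cells over 533 CPM in dividing and 469 CPM in NEUROD4/NHLH1 cells. It was at 436 CPM in DLX cells and 340.1 CPM in TBR1/PPP1R17 cells of that day.

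At D22, NEUROD4/NHLH1 against dividing cells had 0 of 5 members over 2-fold higher and 2 lower (6.46% and 9.46% of all genes). DLX against NEUROD4/NHLH1 cells had 3 higher and 1 lower of 5 (3.47% and 4.71%), and IRX against dividing cells 3 higher and 0 lower of 6 (7.13% and 10.1%). The 3 were CDH6, CDH11 (14.3 against 4.81 CPM) and CDH8. The IRX cells also had more COL3A1, a collagen of mesenchyme (60.7 against 0.828 CPM), and CLDN5, a vessel claudin (14.3 against 1.45 CPM), while 6 of 9 epithelial genes were over 2-fold lower, and their part in these differences was not tested. At D26 GNRH1-high cells of no other gate were set against DLX cells, which had at least 3 DLX UMIs and GNRH1 under 3000 CPM. CDH6 was at 33.9 and 8.61 CPM, 3.94-fold higher (1.98), CDH4 at 37.4 and 27.2 CPM, and CDH8 at 4.30 and 11.2 CPM (-1.38). There 1 of 6 members was higher and 1 lower, beside 0.490% and 0.920% of all genes. IRX cells at D26 had CDH6 at 23.3 CPM against 0.613 CPM in TBR1/PPP1R17 cells (5.25) and CDH8 at 55.5 against 23.7 CPM (1.23), and 2 of 8 members were higher and 2 lower in them, beside 5.73% and 8.78%.

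**Figure D5:**
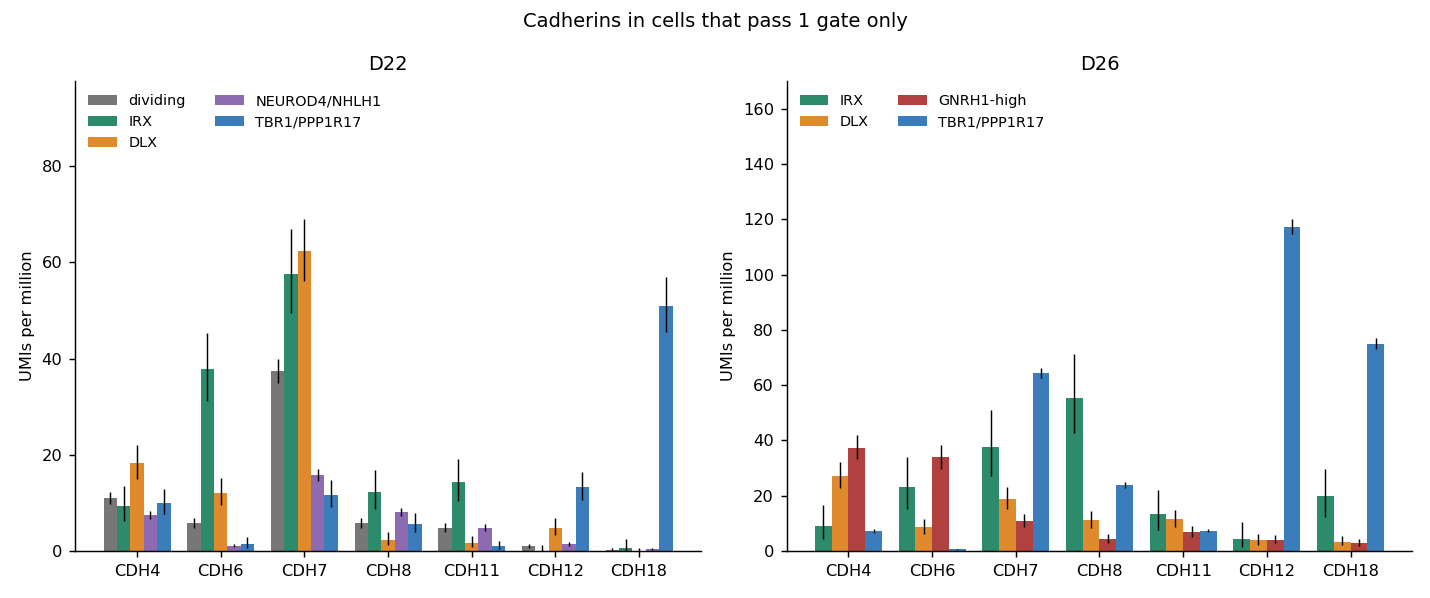
Bars show the level of 7 cadherins in cells of 1 gate each at D22 and D26, in CPM from 0, with exact 95% Poisson intervals for counting error. CDH18 is at 51.0 in TBR1/PPP1R17 cells of D22 and at 0.290 in dividing cells, and CDH6 is at 37.8 in IRX cells of D22 and 33.9 in GNRH1-high cells of D26.

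T-cadherin (CDH13) was hardly present at any stage. It was at 0.566 CPM at D0 and between 0.176 and 0.344 CPM in the other 7 libraries, 203 UMIs in all, and neighbouring levels overlapped throughout. It had 0 UMIs in GNRH1-high cells at D26, where 3 counts would be 0.4 CPM, and 27 in TBR1/PPP1R17 cells. These 27 are 0.379 CPM, under that floor, so the counts do not separate the gates. The protein-coding gene HSBP1 overlaps CDH13 on the same strand, and its part in the CDH13 counts was not tested.

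Ordered over the 8 libraries, CDH2 was highest at D22, CDH4 in D10_XAV939, CDH6 and CDH8 in D10_dSMADi, CDH11 in D10_XAV939, CDH7, CDH12 and CDH18 at D26, and CDH1 and CDH13 at D0. Libraries up to D10 and from D22 on differ in run, dissociation and counting version, so between them these orders only set levels side by side. Neighbours in these orders overlapped within counting error at the following places. For CDH2 these were D10_XAV939 and D10_dSMADi, and for CDH11 D0 and D22. For CDH4 they were D10_XAV939 with D26, D22 with D24, and D0 with D5_XAV939 with D10_dSMADi. For CDH6 they were D10_XAV939 with D5_XAV939, and D24 with D5_dSMADi with D22 with D26. CDH8 overlapped between D26 and D10_XAV939 and between the D5 libraries, and CDH18 between D26 and D24 and among the D5 libraries and D0. CDH1 overlapped among the 4 libraries of D5 and D10 and again among D22, D24 and D26, and CDH12 among the 5 libraries up to D10. For CDH7 no neighbours overlapped. Genes whose log2(CPM + 1) went most like CDH1 over the 8 libraries were TRIML2 (Pearson r 0.999), CLDN7 (0.999) and AC009446.1 (0.998). For CDH2 they were TMEM169 (0.982), TSPAN18 (0.980) and ZHX1 (0.975), and for CDH12 CHL1 (0.993), SCN2A (0.993) and GRIA2 (0.992). These are the 3 highest of 4889 genes over 8 points that share depth and library, so they are a description only.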

How the data were processed

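The authors deposited UMI counts per gene and cell as matrices, made with Cell Ranger 6.1.2 (D0 to D10) and 3.1.0 (D22 to D26) per the file headers, on GRCh38 per the labels. Cell tags assigned the D0 to D10 cells, with 95.1 to 95.6% of tag counts from the library's own tag. Each file was matched to its condition by its name and tag. The filters on UMIs, genes, mitochondrial share and complexity (log10 genes over log10 UMIs) took the limits the study lists, except at D0, where the complexity limit kept 1 of 1009 cells and was not applied. They kept 78.1 to 97.5% of the deposited barcodes. At D5 and D10 the study's stated cell numbers equal all deposited barcodes, so these limits removed cells there that the study analysed. Doublets stayed in: scanpy 1.11.5 Scrublet scored 1.78 to 7.46% of cells over 0.25, and its automatic limit marked 3 cells each at D24 and D26 and so did not work there.

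UMIs were summed per library or gate (Python 3.11.15) and divided by the summed UMIs of the same cells. Ratios have exact binomial intervals (scipy 1.17.1). No test was possible without replicate libraries, and intervals cover counting error only. A gene counts as higher or lower past 2-fold with at least 5 CPM in 1 group, over all genes of the table. Named were the 10 members, the 2 largest ratios in each direction of each fixed list, and the 3 genes most like CDH1, CDH2 and CDH12 with at least 50 CPM in 1 library. SNAI1, SNAI2 and the stem cell, progenitor and neuron markers set beside members were named beyond this rule. Members and lists were chosen with earlier results of these data known. Alternatives were TMM (edgeR 4.0.16) and DESeq2 1.42.0 size factors in R 4.3.3, other filters, doublets left out, means over cells and other gate limits. The ratio procedure was tested on simulated data.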

Additional observations from a re-analysis of the deposited data

Results flagged for a closer look

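Flagged were results whose effects went in opposite directions in 2 settings. The XAV939 ratio of CDH6 was 0.65 (0.49 to 0.81) at D5 and -0.29 (-0.43 to -0.16) at D10. The D26 over D24 ratio of CDH4 was 1.26 in GNRH1-high cells and -0.36 in TBR1/PPP1R17 cells. The same ratio of CDH6 was -1.70 in GNRH1-high cells and 1.23 in TBR1/PPP1R17 cells, where its level was under 1 CPM on both days. With 1 library each, none of these differences was tested.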

How the results depend on the processing

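CDH2 in D10_dSMADi over D0 was 3.57 with TMM and 3.58 with DESeq2 scaling instead of 3.70. Over the 101 ratios at the minimum, 649 values were computed under alternatives. Of these 26 moved by over 1.5 times, 23 crossed 2-fold and 15 turned sign, the last all within 2-fold. CDH4 in D26 over D24 turned to -0.08 and -0.10 and CDH18 to -0.23 and -0.24 with TMM and DESeq2. TMM and DESeq2 lowered every ratio of D10_dSMADi over D0 by 0.13 and 0.12. With every deposited barcode kept, CDH4 in D10_XAV939 over D0 went from 0.92 to 1.00, past 2-fold. CDH12 and CDH18 up to D5 and CDH13 throughout rest on few UMIs, so small differences between their levels could not be seen. No paired analysis was possible because each condition has 1 library, and for the same reason no replicate could be left out.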
